A study of Rattus norvegicus with 6 samples.

Results

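The drug- and xenobiotic-metabolising enzymes described here comprised the genes whose symbols begin with Cyp1, Cyp2, Cyp3 or Cyp4 followed by a letter, or with Ces1, Ces2, Ugt1, Ugt2, Sult1, Sult2, Gsta, Gstm, Gstp or Gstt, and that had at least 1 unique molecular identifier (UMI, a tag that marks each captured RNA molecule once) in at least 10 nuclei that passed quality control. Of 28282 gene symbols in the tables, 24591 met this detection limit. The symbol rule matched 126 of all symbols and 119 of these were detected. The first symbol inside the limit was Ugt2b1 with 11 nuclei, and the first outside it was Ugt2b7 with 9 nuclei. The 119 enzymes held 39 Cyp2, 15 Cyp4, 7 Cyp3 and 3 Cyp1 genes, 7 Ces2 and 5 Ces1 genes, 7 Ugt1 and 6 Ugt2 genes, 7 Sult1 and 3 Sult2 genes, and 8 Gstm, 6 Gsta, 4 Gstt and 2 Gstp genes. Together they held 165859 UMIs, which was 0.165% of all UMIs of the nuclei that passed. In the text, genes outside a fixed naming rule are named as chosen after their values were seen. The rule itself also took up to 5 enzymes per direction with the largest fold change in enterocyte-like nuclei among those whose groups did not overlap. Cyp2c66, Cyp3a73, Cyp4f40 and Gstm4 entered by that part alone, so their lack of overlap in these nuclei follows from the choice.

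Enzymes of these families make fat-soluble foreign compounds easier to excrete. Cytochrome P450 enzymes (Cyp) add oxygen with electrons from cytochrome P450 reductase (Por), and carboxylesterases (Ces) split ester and amide bonds. UDP-glucuronosyltransferases (Ugt), sulfotransferases (Sult) and glutathione S-transferases (Gst) then attach glucuronic acid, sulfate or glutathione. In the small intestine the Cyp3a enzymes of the villus enterocyte are best known for removing oral drugs before they reach the liver, while many Cyp2j, Cyp4f and Gsta enzymes act mainly on fatty acids and lipid peroxidation products of the body itself.

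The data were single-nucleus RNA counts of the ileum from 6 male Sprague–Dawley rats that were 6 weeks old, had been fasted with free access to water and were anaesthetised with pentobarbital. The 3 control rats (CON) had a sham laparotomy with no infusion, and the 3 rats with severe acute pancreatitis (SAP) received 3% sodium taurocholate, 0.1 mL for every 100 g of body weight at 0.1 mL/min, retrograde into the biliopancreatic duct, which was clamped for 5 min. The ileum was taken at 24 h with Peyer's patches avoided, and 1 library was made per rat. The model is one chemical injury of the pancreas at 1 time point, and the surgery of the CON group did not include an infusion of vehicle.

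The tables listed 90461 barcodes, and 40970 nuclei passed the limits of at least 1200 UMIs, at least 500 genes and at most 5% mitochondrial UMIs. The libraries kept 3189 to 9246 nuclei and 5549260 to 28771508 UMIs, with SAP replicate 1 the smallest and CON replicate 1 the largest. The median mitochondrial share was 0.125% to 0.700% in CON and 0.387% to 1.84% in SAP. Barcodes below 1000 UMIs were present only for CON replicate 2 and SAP replicate 1, and pairs of libraries shared 701 to 7479 barcode names, which is a count of names and not of shared cells. Nuclei were clustered without the 119 enzymes, and 18 of 23 clusters were named for the class whose markers they carried (for example enterocyte-like), while 5 stayed unnamed. Epithelial nuclei were 71.8% to 89.3% of CON and 58.4% to 89.7% of SAP libraries, and enterocyte-like nuclei were 14.2%, 16.5% and 17.2% of CON and 30.4%, 45.5% and 16.8% of SAP nuclei. The defining enterocyte markers were present in the enterocyte-like nuclei, where the sum of 14 marker genes was 4232 to 9128 UMIs per 1000000 UMIs (CPM), against 975 to 3665 CPM in non-epithelial nuclei. That level in nuclei of other classes is a background to the levels below, where non-epithelial levels are given for some of the enzymes only. Paneth cell marker RNA was high throughout CON replicate 1 and SAP replicate 1, at 32344 and 42127 CPM in non-epithelial nuclei against 2509 to 3459.5 CPM in the other libraries. Liver marker RNA was near 0, with a sum of 5 hepatocyte markers of 1.3 to 5.8 CPM over all nuclei.

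The promoters of Cyp3a9 and Cyp3a62 are shown because these genes had the most UMIs of the Cyp3 group, and that of Gsta4 because it was lower in every SAP library, against the direction of most enzymes. RefSeq (GRCr8) placed the 250 bases before the start of Cyp3a9 at chr12:21960161-21960410 on the minus strand, those of Cyp3a62 at chr12:21511513-21511762 on the plus strand and those of Gsta4 at chr8:87947015-87947264 on the plus strand. Written 5′ to 3′, capitals in the pair of Cyp3a sequences mark stretches of at least 10 bases that both promoters hold, and capitals in Gsta4 mark the aryl hydrocarbon receptor (AhR) response core GCGTG on either strand.
Cyp3a9: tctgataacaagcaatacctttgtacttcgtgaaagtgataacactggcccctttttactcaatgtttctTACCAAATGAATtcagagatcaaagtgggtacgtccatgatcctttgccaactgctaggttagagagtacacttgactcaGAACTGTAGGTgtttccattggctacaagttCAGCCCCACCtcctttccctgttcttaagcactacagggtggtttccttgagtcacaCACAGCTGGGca
Cyp3a62: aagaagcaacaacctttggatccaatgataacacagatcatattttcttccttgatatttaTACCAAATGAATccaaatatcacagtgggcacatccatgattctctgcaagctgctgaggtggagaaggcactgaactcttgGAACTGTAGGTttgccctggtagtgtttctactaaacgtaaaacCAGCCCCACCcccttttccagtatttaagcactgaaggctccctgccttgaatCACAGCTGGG
Gsta4: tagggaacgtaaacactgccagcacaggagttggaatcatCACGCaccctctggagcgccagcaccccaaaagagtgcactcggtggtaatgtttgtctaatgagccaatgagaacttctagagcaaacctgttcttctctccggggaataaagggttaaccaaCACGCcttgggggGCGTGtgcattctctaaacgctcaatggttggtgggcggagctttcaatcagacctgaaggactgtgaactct

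The Cyp3a9 and Cyp3a62 promoters shared 4 such stretches covering 43 of 250 bases (17.2%), and for either gene no promoter among 27456 others except that of its partner shared as many bases. Any stretch of that length was shared with Cyp3a9 by 6.14% and with Cyp3a62 by 8.36% of the other promoters. The Gsta4 promoter held GCGTG at 3 places, 210 to 206 and 86 to 82 bases before the start on the minus strand and 73 to 69 bases before it on the plus strand. Of 27457 promoters of this length, 27.2% held GCGTG on either strand, as did 25 of the 105 enzymes with a promoter entry (23.8%). The half-site of nuclear receptors, AGGTCA, was in 13.7% of all promoters and in 21 of 105 enzymes (20%), and the TATA box TATAAA in 13.1% and in 28 of 105 (26.7%). The antioxidant response core TGACNNNGC was in 10.2% of all and in 9 enzymes (8.57%), and TTTATNG, the site of the intestinal factor Cdx, in 10.1% of all and in 11 enzymes (10.5%). Both strands were searched for all 5 motifs, hits of different motifs were allowed to overlap, and a match describes the letters in this window alone.

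Levels over classes were compared as CPM, the UMIs of a gene per 1000000 UMIs of a class in a library, with the mean ± SD over 6 libraries, and they are a description with no test. Of the 62 enzymes with at least 200 UMIs, 16 had their highest mean in enterocyte-like nuclei and 11 in cluster 2, an unnamed epithelial cluster closest to the enterocyte-like class and led by Pla2g4c, Hnmt and Bche. Another 4 each were highest in stem and transit-amplifying (stem/TA)-like nuclei, fibroblast-like nuclei, cluster 13 and NAC-like nuclei (named from nervous tissue markers), and the other 19 were spread over 9 further classes or clusters. The enterocyte-like mean was at least 2-fold the non-epithelial mean for 16 of the 62 enzymes, at least 5-fold for 2 and below it for 29, with a median ratio of 1.29. The 57 enzymes under 200 UMIs were left out of these counts as sparse. This limit was on the UMIs over all nuclei and not within a class. NAC-like nuclei of SAP replicate 1 were 10 nuclei with 25669 UMIs, so a mean in a small class can rest on few UMIs of an enzyme.

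Among the 62 enzymes with at least 200 UMIs, Cyp3a9, a member of the main intestinal drug oxidases, had the highest ratio of its enterocyte-like to its non-epithelial level. Cyp3a9 had 276 ± 207 CPM there, 34.8 ± 27.1 CPM in cluster 2 and 42.8 ± 39.6 CPM in non-epithelial nuclei, a ratio of 6.45 to the non-epithelial level. Cyp3a62 had 198 ± 111 CPM in enterocyte-like, 44.2 ± 36.5 CPM in stem/TA-like and 49.1 ± 44.4 CPM in non-epithelial nuclei. In all 6 libraries both genes were higher in enterocyte-like than in non-epithelial nuclei, by 3.10- to 12.6-fold for Cyp3a9 and 2.55- to 9.09-fold for Cyp3a62. Cyp2j3, an epoxygenase of arachidonic acid, had 124 ± 78.2 CPM in enterocyte-like against 38.3 ± 31.3 CPM in non-epithelial nuclei. Cyp2d4, of the Cyp2d drug oxidases, had 63.0 ± 18.1 against 25.5 ± 19.5 CPM, and Cyp4f5, of the fatty acid hydroxylases, 80.6 ± 29.8 against 33.6 ± 18.2 CPM.

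Of the hydrolases and conjugating enzymes, Ces2, the main intestinal carboxylesterase, had 94.4 ± 30.9 CPM in enterocyte-like and 36.1 ± 20.3 CPM in non-epithelial nuclei. Ces1e lay in all classes, from 42.3 CPM in NAC-like nuclei to 136 CPM in cluster 2, and cluster 2 and stem/TA-like nuclei (128 ± 42.1 CPM) did not differ beyond the spread of 49.6 CPM (SD) in cluster 2, which was the higher in 3 of 6 libraries. Sult2b1, which sulfates cholesterol, had 331 ± 58.5 and 331 ± 84.0 CPM in enterocyte-like nuclei and cluster 2, against 126 ± 86.6 CPM in stem/TA-like nuclei. Ugt2b10 followed the same order, with 130.2 ± 32.2, 111 ± 39.0 and 51.6 ± 34.1 CPM. Ugt1a9 was the most counted enzyme (26254 UMIs) and was less restricted, with 377 ± 63.5 CPM in enterocyte-like, 385 ± 44.9 CPM in cluster 2 and 224 ± 38.7 CPM in non-epithelial nuclei. The 8 Ugt1 symbols of the rule share 1 gene end in the annotation, so reads near that end cannot be assigned to a single Ugt1 symbol and their separate levels are uncertain. The Cyp3a, Cyp2j, Cyp4f, Ces2, Gsta and Gstm genes do not overlap each other in the annotation, but they hold similar copies between which reads may be split, so their separate levels are also uncertain.

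Several enzymes had their highest level away from the absorptive epithelium. Gstm5, a glutathione transferase, had 117 ± 103 CPM in Paneth-like nuclei, with 295, 0 and 152 CPM in CON against 86.0, 123 and 44.4 in SAP, and 13.6 CPM in enterocyte-like nuclei. CON replicate 2 had none and CON replicate 1, where Paneth RNA was high throughout, had the most, so that the groups overlapped. Gstt2 and Gstt3, theta-class transferases, were highest in stem/TA-like nuclei at 115 ± 28.8 and 47.6 ± 11.9 CPM against 60.0 ± 31.6 and 17.1 ± 7.38 CPM in enterocyte-like nuclei. Sult1c2a, a sulfotransferase of phenols, had 90.9 ± 36.0 CPM in cluster 13 and 50.4 ± 15.9 CPM in stem/TA-like nuclei. Cluster 13 stayed unnamed and was counted as non-epithelial only because its closest named class was B/T-like. Gstp1, the pi-class transferase, had 182 ± 97.9 CPM in cluster 7, an unnamed epithelial cluster led by ribosomal protein genes and Spink4, and 146 ± 80.5 CPM in Paneth-like nuclei.

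Cyp1b1, a target of AhR in many tissues, was found mainly in smooth muscle cell (SMC)-like nuclei at 36.4 ± 16.5 CPM, with 27.8, 30.3 and 12.6 CPM in CON against 46.5, 60.0 and 40.8 in SAP, against 0.478 ± 0.870 CPM in enterocyte-like nuclei. All 3 SAP libraries lay above the CON libraries there, on 103 UMIs in all. Of enzymes chosen after their values were seen, Gsta6 was also highest in SMC-like nuclei at 41.9 ± 15.3 CPM and had 4.06 ± 4.23 CPM in enterocyte-like nuclei. Gsta1 and Cyp4b1 were highest in fibroblast-like nuclei at 40.2 ± 28.9 and 41.3 ± 49.2 CPM, against 0.974 ± 0.786 and 7.54 ± 2.29 CPM in enterocyte-like nuclei. Cyp2s1 was highest in B/T-like nuclei at 14.8 ± 15.3 CPM, where CON replicate 3 and SAP replicate 3 had 32.5 and 35.1 CPM and the other libraries 2.0 to 12.9 CPM.

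**Figure D1:**
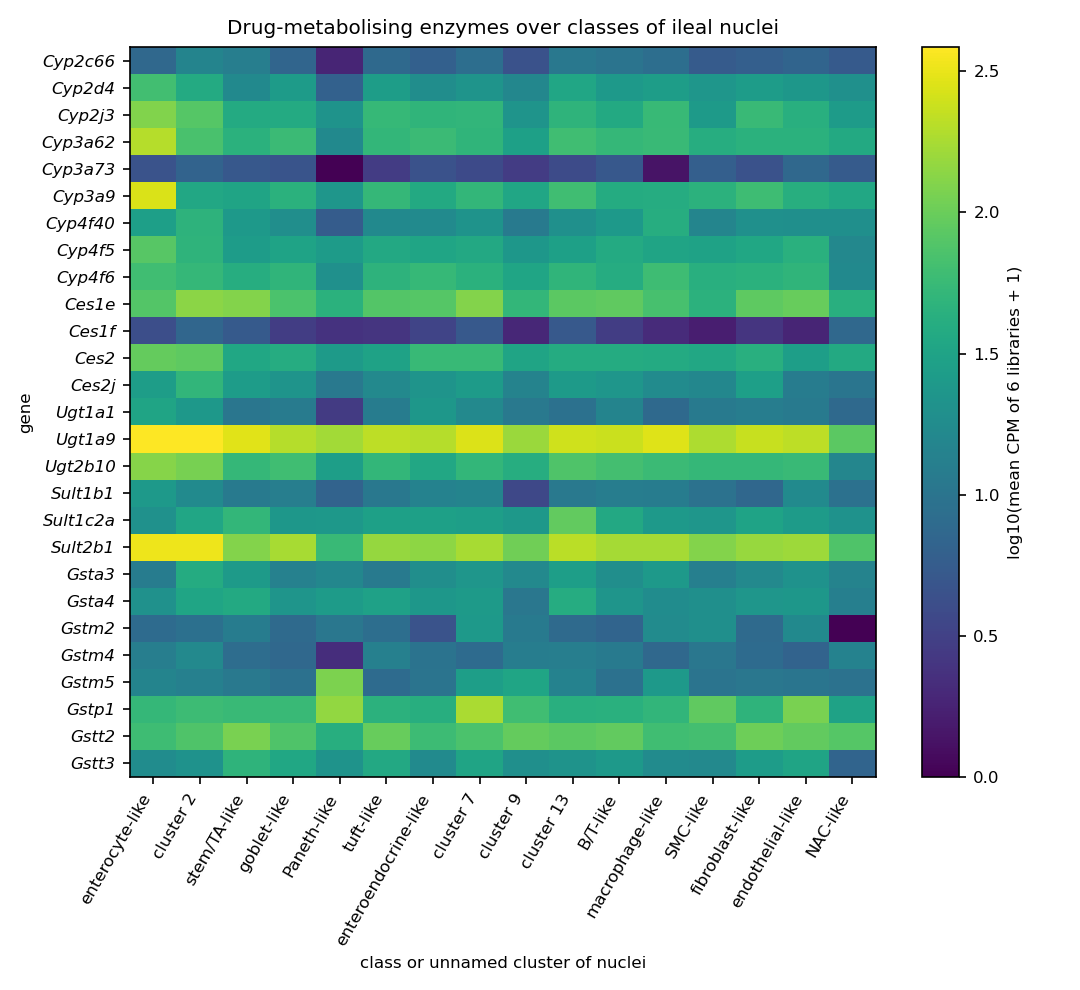
Mean level over 6 libraries of each named enzyme with at least 200 UMIs (vertical axis) in each class or unnamed cluster of nuclei (horizontal axis), as the log10 of CPM plus 1 (colour). Cyp3a9 and Cyp3a62 were brightest in the enterocyte-like column, Gstm5 in the Paneth-like column and Gstt2 in the stem/TA-like column.

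The enterocyte-like class held 3 clusters, and the enzymes differed between them. Cluster 6 carried the villus tip markers, with means of 1532 CPM of Slc28a2, a nucleoside carrier, and 1133 CPM of Apoa4, a chylomicron protein, against 60.8 and 45.2 CPM in cluster 1 and 102 and 377 CPM in cluster 8. In clusters 1, 6 and 8, Cyp3a9 had means of 60.3, 718 and 213 CPM and Cyp3a62 113, 353 and 189 CPM. Cyp2j3 had 83.8, 203 and 113 CPM and Cyp4f5 51.7, 148 and 68.4 CPM, so that these 4 P450 genes were highest in cluster 6. Some other enzymes had another order. Ugt2b10 had 151, 59.5 and 139 CPM, Sult2b1 374, 186 and 384 CPM and Ugt1a9 368, 257 and 488 CPM, all lowest in cluster 6, as was Ces2 with 79.0, 64.0 and 148 CPM. Of the 62 enzymes with at least 200 UMIs, 16 were highest in cluster 1, 19 in cluster 6 and 27 in cluster 8. Cluster 6 made up 16.6%, 18.3% and 28.3% of enterocyte-like nuclei in CON and 28.7%, 32.4% and 34.9% in SAP, with no overlap between the groups.

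**Figure D2:**
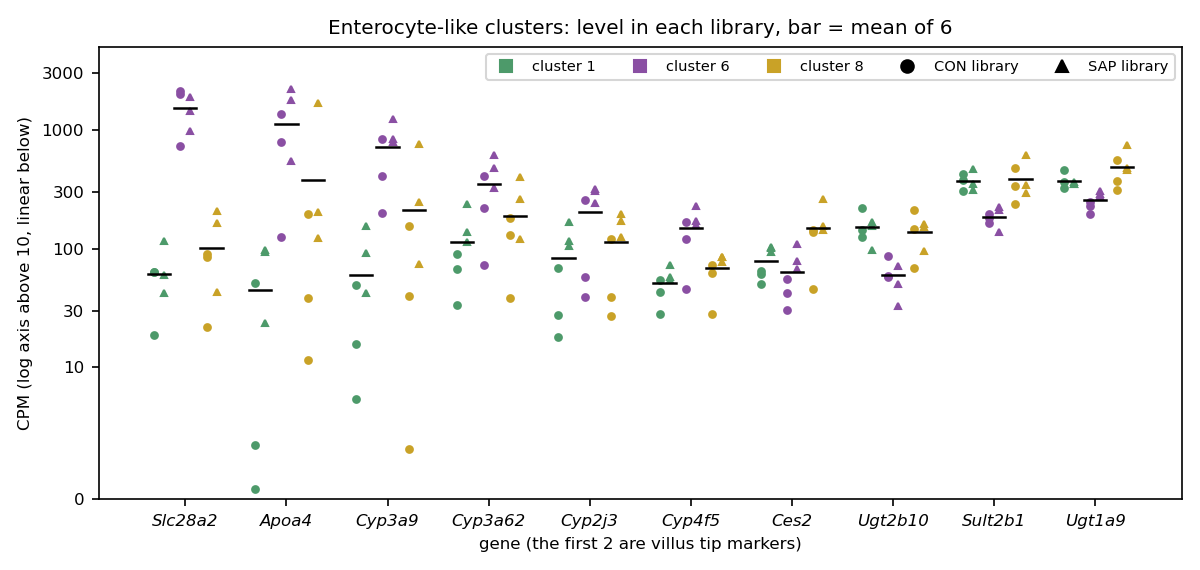
Level in CPM (vertical axis, logarithmic above 10 and linear below) of 2 villus tip markers and 8 enzymes in the 3 enterocyte-like clusters, with circles for CON and triangles for SAP libraries and bars for the mean of 6. Cyp3a9 stood highest in cluster 6 together with both markers, while Ugt2b10, Sult2b1 and Ugt1a9 stood lowest there.

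The comparison of SAP with CON asked whether the enzymes of the ileum differ 24 h after induction of pancreatitis. Over all epithelial nuclei, Cyp3a9, Cyp3a62, Cyp2j3 and the carboxylesterase Ces2 were higher in every SAP library, and Gsta4 was lower, but no enzyme passed the test across all genes. The Cyp2 genes had both directions, and of 17 tested 11 had a log2 fold change above 0 and 6 below, with 5 higher and 3 lower without overlap. UMIs were summed per rat and fitted with edgeR's quasi-likelihood test over all genes, and an enzyme was called at an adjusted p under 0.05 with a log2 fold change of 0.5 or more in either direction. In the sum over all epithelial nuclei, 71 enzymes had enough counts to be tested and 0 were called, as were 0 of all 17285 genes tested (0%). At an unadjusted p under 0.05, 19 were higher in SAP and 3 lower, where 4.93% and 6.06% of all genes tested were higher and lower. DESeq2, the alternative tool, called 9 of 61 with a value, all higher and with Ces2, Cyp2c66, Cyp2j3, Cyp3a9 and Cyp3a62 among them, against 1.86% of genes. The libraries of the 2 groups did not overlap for 19 enzymes higher and 4 lower, against 6.33% and 12.4% of all genes. The median log2 fold change was 0.45 over the tested enzymes and −0.005 over all genes, with 52 enzymes above 0 (49.6% of all genes were) and 19 below. In sums of this kind, fewer cells of a type and less RNA per cell cannot be told apart, and the share of enterocyte-like nuclei was higher in 2 of the 3 SAP libraries than in any CON library.

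Within enterocyte-like nuclei, Cyp3a9, Cyp3a62, Cyp2j3 and Cyp4f5 were higher and Gsta4 and Cyp4f40 lower in every SAP library, and the conjugating enzymes Ugt1a9 and Sult2b1 overlapped between the groups. Of 55 enzymes tested by edgeR, 0 were called (0% of 13505 genes). DESeq2 called 0 of the 45 enzymes to which it gave an adjusted p, against 0.406% of 11825 genes. By edgeR, 5 of the 55 were higher and 2 lower at an unadjusted p under 0.05, against 3.78% and 4.47% of genes. The groups did not overlap for 8 higher and 3 lower, against 6.53% and 7.91%. The median log2 fold change was 0.30 over the enzymes and −0.01 over all genes, with 36 above 0 (49.3% of all genes were) and 19 below. Over all nuclei, 79 enzymes were tested and edgeR called 0 (0% of 19187 genes), 21 were higher and 3 lower at an unadjusted p under 0.05 against 3.97% and 4.47% of genes. DESeq2 called 8 of the 75 enzymes to which it gave an adjusted p, against 1.08% of genes. Among the 8 was Ugt2b, a glucuronosyltransferase, at a log2 fold change of 4.16 (SE 1.11, adjusted p 0.0289 by DESeq2). It had 197 UMIs in all, but edgeR's filter, which asks for enough counts in several libraries, left it untested. Its spread over the libraries is not given here. The summed level of all 119 enzymes in enterocyte-like nuclei was 2136, 1692 and 2448 CPM in CON against 3251, 2823 and 2671 in SAP. In this plain CPM it was higher in each SAP library than in any CON library. The normalisation of the fits (TMM) raises CON replicate 1 and lowers SAP replicate 3. With the sums scaled in this way, CON replicate 1 lies above SAP replicate 3, so the groups overlap on the scale of the fits.

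**Figure D3:**
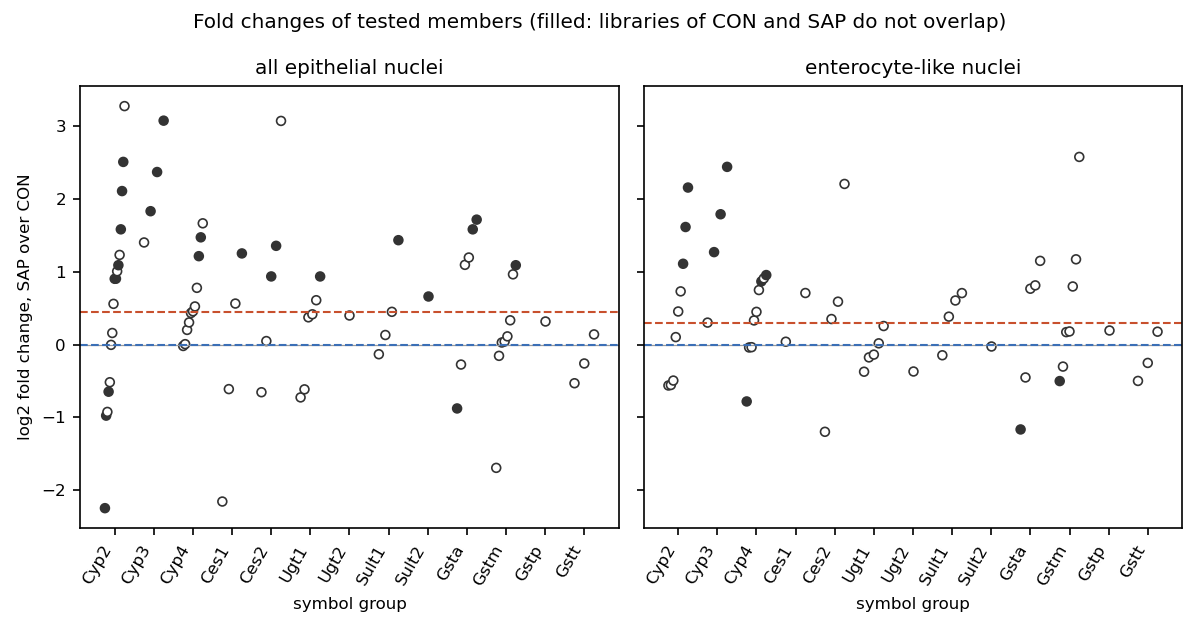
Log2 fold change of SAP over CON (vertical axis) for each tested enzyme by symbol group (horizontal axis), in all epithelial nuclei (left) and enterocyte-like nuclei (right), with filled points where the libraries of CON and SAP did not overlap. The blue dashed line is the median of all genes tested and the red one the median of the enzymes (0.45 left, 0.30 right), and the Cyp3 points lie above 0 in both panels.

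The Cyp3 genes, the main drug oxidases of the intestine, were together higher in every SAP library. The summed level of its 7 genes was 67.7, 46.1 and 208 CPM in CON against 444, 548 and 228 in SAP over epithelial nuclei, and 244, 104 and 515 CPM in CON against 978, 763 and 528 in SAP in enterocyte-like nuclei. The groups did not overlap in either sum, although CON replicate 3 lay just under SAP replicate 3 in both. Values of single genes per library are given from here on as CPM after TMM normalisation, the scale of the fits, unless plain CPM is stated. Sums over several genes are in plain CPM throughout. Cyp3a9 in enterocyte-like nuclei was at 107, 33.9 and 245 CPM in CON against 707, 363 and 266 in SAP, with a log2 fold change of 1.79 (SE 0.68, adjusted p 0.592). All SAP libraries were above the CON libraries, with SAP replicate 1 the highest and CON replicate 2 the lowest. Over all epithelial nuclei, Cyp3a9 was at 29.1, 12.1 and 84.4 CPM in CON against 304, 255 and 90.0 in SAP, with a log2 fold change of 2.37 (SE 0.73, adjusted p 0.408).

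Cyp3a62 was at 154, 34.8 and 171 CPM in CON against 344, 349 and 178 in SAP in enterocyte-like nuclei, with a log2 fold change of 1.27 (SE 0.56, adjusted p 0.613). Over all epithelial nuclei it was at 48.7, 23.3 and 68.4 CPM in CON against 157, 264 and 78.3 in SAP, with a log2 fold change of 1.83 (SE 0.52, adjusted p 0.40). Its groups did not overlap in either sum, but CON replicate 3 and SAP replicate 3 were close. Cyp3a73 was sparse, with 3, 0 and 10 UMIs in CON against 10, 67 and 12 in SAP in enterocyte-like nuclei. Its log2 fold change of 2.44 (SE 0.86, adjusted p 0.583) rests on these few UMIs, and 1 CON library had none. DESeq2 gave 2.51 (SE 0.90) and no adjusted p. Cyp3a18, chosen after its values were seen, was at 53.2, 19.6 and 48.0 CPM in CON against 68.6, 53.3 and 29.1 in SAP in enterocyte-like nuclei, where its groups overlapped. CON replicate 2, the lowest library for these genes, also had the lowest enterocyte marker sum of the enterocyte-like nuclei (9128, 4232 and 8812 CPM in CON against 8677, 7917 and 8223 in SAP, plain CPM). Without that library the log2 fold change of Cyp3a9 was 1.35. Without CON replicate 3 it was 2.65, and without SAP replicate 1 it was 1.29. The villus tip marker sum was 518, 748 and 1819 CPM in CON against 2847, 1634 and 2132 in SAP. Within cluster 6 alone, the cluster with the villus tip markers, the log2 fold change of Cyp3a9 was 1.14, and within clusters 1 and 8 it was 2.04 and 2.50, with 0 enzymes called in these fits (0%, 0.0232% and 0% of genes in clusters 1, 6 and 8), which were added after seeing the data. Enzymes at an unadjusted p under 0.05 numbered 10 of 39, 7 of 28 and 3 of 32 in clusters 1, 6 and 8, against 10.6%, 10.5% and 2.86% of genes.

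Among the other P450 groups, the Cyp2 sum was 229.6, 142 and 316 CPM in CON against 362, 379 and 451 in SAP and the Cyp4 sum 176, 201 and 249 CPM in CON against 319, 272 and 268 in SAP in enterocyte-like nuclei, and neither overlapped between the groups. Cyp2j3 was at 40.01, 27.6 and 115 CPM in CON against 188, 172 and 202 in SAP, with a log2 fold change of 1.61 (SE 0.49, adjusted p 0.583). The SAP libraries were close to each other and above the CON libraries, of which CON replicate 3 was the highest. Over all epithelial nuclei, Cyp2j3 was at 14.7, 16.4 and 50.1 CPM in CON against 103, 143 and 103 in SAP, with a log2 fold change of 2.1 (SE 0.49, adjusted p 0.40). Cyp2c66, of the Cyp2c subfamily, had 3, 4 and 19 UMIs in CON against 19, 49 and 55 in SAP in enterocyte-like nuclei and a log2 fold change of 2.15 (SE 0.61, adjusted p 0.583), also without overlap. Cyp2d4 overlapped, at 106, 31.2 and 54.0 CPM in CON against 71.2, 86.4 and 47.9 in SAP with a log2 fold change of 0.10 (SE 0.44, adjusted p 0.970).

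Cyp4f5 was at 39.4, 65.1 and 60.2 CPM in CON against 131, 99.9 and 88.8 in SAP in enterocyte-like nuclei, with a log2 fold change of 0.95 (SE 0.27, adjusted p 0.583), with all SAP libraries above the CON libraries. Cyp4f40 had the opposite direction there, at 38.0, 37.5 and 29.8 CPM in CON against 16.2, 19.98 and 24.4 in SAP and a log2 fold change of −0.78 (SE 0.26, adjusted p 0.583), with all SAP libraries below. In the epithelial sum Cyp4f40 was at 20.9, 19.7 and 27.4 CPM in CON against 17.2, 25.3 and 24.4 in SAP, where the groups overlapped. Cyp4f6 was at 70.3, 39.2 and 55.8 CPM in CON against 84.1, 67.3 and 57.8 in SAP in enterocyte-like nuclei and overlapped on this scale, but not in plain CPM. The Cyp1 genes were near 0 in the epithelium, where their sum was 0.483, 0.299 and 1.38 CPM in CON against 0.619, 0.466 and 1.70 in SAP, and no Cyp1 gene was tested there. Cyp1a1, the classic target of AhR, had at most 1.55 CPM (plain CPM) in any library of enterocyte-like nuclei. It had no UMI in those of CON replicate 2 and SAP replicate 1.

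Of the carboxylesterases, Ces2 was at 36.7, 21.1 and 45.4 CPM in CON against 104, 106 and 54.5 in SAP over all epithelial nuclei, with a log2 fold change of 1.35 (SE 0.37, adjusted p 0.40), with all SAP libraries above the CON libraries. In enterocyte-like nuclei it was at 127, 39.2 and 70.4 CPM in CON against 159, 114 and 85.5 in SAP, with a log2 fold change of 0.59 (SE 0.42, adjusted p 0.766), and the groups overlapped. Ces2j was at 16.8, 19.8 and 16.3 CPM in CON against 39.96, 39.1 and 22.0 in SAP over epithelial nuclei, without overlap, and a log2 fold change of 0.93 (SE 0.30, adjusted p 0.411). In enterocyte-like nuclei its log2 fold change was 0.35 (SE 0.36, adjusted p 0.843). Ces1e overlapped in both sums, at 79.4, 96.3 and 58.2 CPM in CON against 175, 102 and 69.2 in SAP over epithelial nuclei, where SAP replicate 1 was the highest. Ces1f was sparse, with 38, 9 and 47 UMIs in CON against 27, 48 and 57 in SAP over epithelial nuclei and a log2 fold change of 1.25 (SE 0.53, adjusted p 0.446), and it had a log2 fold change of 0.04 (SE 0.64, adjusted p 0.995) in enterocyte-like nuclei.

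The glucuronosyltransferases and sulfotransferases of enterocyte-like nuclei did not separate the groups. Ugt1a9 was at 607, 277 and 287 CPM in CON against 507, 359 and 319.7 in SAP, with a log2 fold change of 0.02 (SE 0.35, adjusted p 0.996). Ugt1a1, which conjugates bilirubin, was at 59.2, 3.57 and 28.0 CPM in CON against 42.1, 30.4 and 37.6 in SAP with a log2 fold change of 0.25 (SE 0.73, adjusted p 0.956). Ugt2b10 was at 207, 101 and 147 CPM in CON against 145, 141 and 67.9 in SAP, with a log2 fold change of −0.37 (SE 0.36, adjusted p 0.835). The groups overlapped for all 3 genes. Sult2b1 was at 391, 272 and 344 CPM in CON against 294, 317 and 378 in SAP in enterocyte-like nuclei, with a log2 fold change of −0.03 (SE 0.22, adjusted p 0.987). Over all epithelial nuclei it was at 157, 152 and 176 CPM in CON against 219, 323 and 228 in SAP, with a log2 fold change of 0.67 (SE 0.22, adjusted p 0.411). There the groups did not overlap on this scale but did in plain CPM. Sult1b1, which sulfates thyroid hormones and phenols, was at 18, 8.03 and 28.2 CPM in CON against 30.4, 32.4 and 27.0 in SAP in enterocyte-like nuclei, with a log2 fold change of 0.71 (SE 0.42, adjusted p 0.710). Sult1c2a had a log2 fold change of −0.15 (SE 0.34, adjusted p 0.950) there. Sult2a1 and Ugt2b, both sparse, were not tested in enterocyte-like nuclei.

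The glutathione transferases had fold changes in both directions, and the Gsta and Gstm sums overlapped between the groups, at 44.5, 72.0 and 65.9 CPM in CON against 64.1, 47.9 and 62.8 in SAP and 70.3, 30.5 and 47.5 CPM in CON against 91.6, 52.4 and 58.9 in SAP in enterocyte-like nuclei. Gsta4, which conjugates 4-hydroxynonenal, a product of lipid peroxidation, was at 22.3, 38.3 and 18.4 CPM in CON against 13.6, 12.7 and 8.93 in SAP in enterocyte-like nuclei, with a log2 fold change of −1.16 (SE 0.37, adjusted p 0.583). Every SAP library was below every CON library. In plain CPM this level was 0.999, 1.31 and 0.905 times the non-epithelial level in CON and 0.688, 0.683 and 0.664 times in SAP. In the sum over epithelial nuclei Gsta4 was at 30.8, 36.7 and 25.8 CPM in CON against 17.6, 17.5 and 15.7 in SAP, with a log2 fold change of −0.88 (SE 0.25, adjusted p 0.40). In clusters 1, 6 and 8 alone its log2 fold change was −1.04, −1.24 and −1.20. Gstm4 was at 14.3, 13.4 and 13.5 CPM in CON against 11.7, 8.25 and 9.63 in SAP in enterocyte-like nuclei, also without overlap, with a log2 fold change of −0.50 (SE 0.30, adjusted p 0.717). Gsta3 had a log2 fold change of −0.45 (SE 0.39, adjusted p 0.810), Gstp1 of 0.20 (SE 0.66, adjusted p 0.966), Gstt2 of 0.18 (SE 0.47, adjusted p 0.955) and Gstt3 of −0.50 (SE 0.57, adjusted p 0.861) there, all with overlap. The value of Gstm5 turned on 1 library. Over epithelial nuclei it was at 130.2, 0.458 and 8.39 CPM in CON against 26.3, 11.5 and 6.32 in SAP, with a log2 fold change of −1.69 (SE 1.45, adjusted p 0.687). Without CON replicate 1 it was 1.69.

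**Figure D4:**
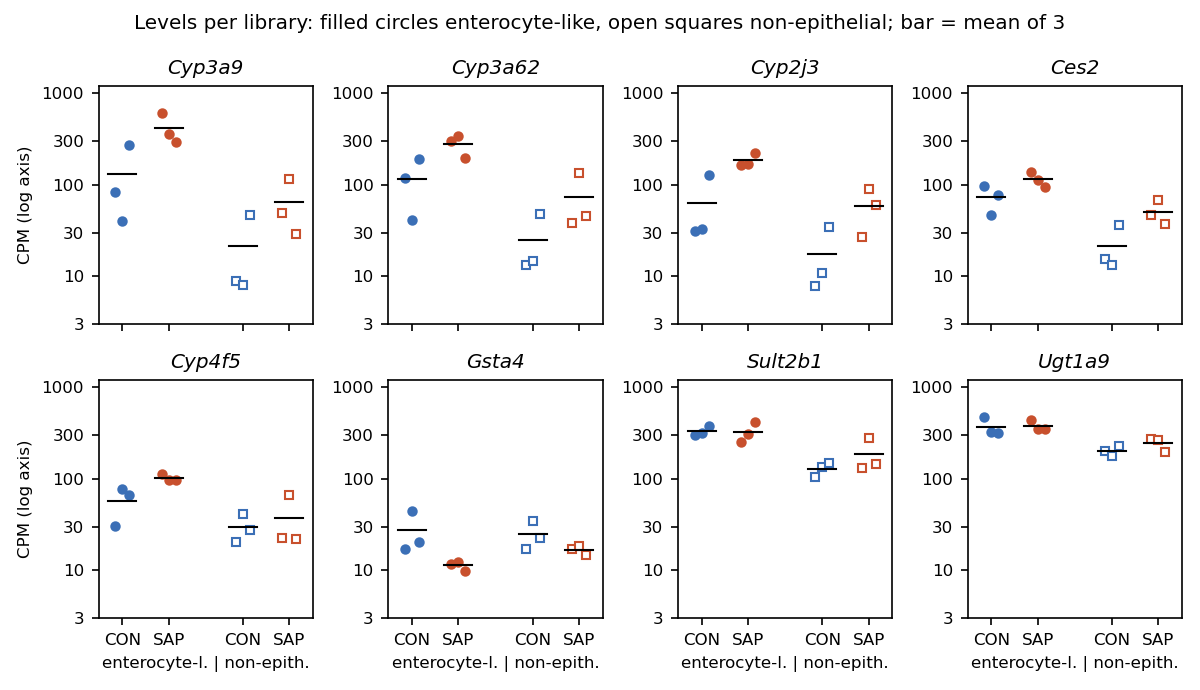
Level in plain CPM (vertical axis, logarithmic) of 8 enzymes in each library of CON (blue) and SAP (red), in enterocyte-like nuclei (filled circles) and non-epithelial nuclei (open squares), with bars for the mean of 3. Cyp3a9, Cyp3a62, Cyp2j3 and Cyp4f5 lie higher and Gsta4 lower in SAP enterocyte-like nuclei without overlap, while Ugt1a9 and Sult2b1 overlap.

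RNA of Cyp3a9 and Cyp2j3 was also counted outside the epithelium, at lower levels. In non-epithelial nuclei Cyp3a9 was at 8.98, 8.06 and 47.0 CPM in CON against 48.6, 115 and 28.9 in SAP (plain CPM), and Cyp2j3 at 7.82, 10.99 and 34.4 CPM in CON against 27.2, 89.3 and 60.1 in SAP. SAP replicate 2 was the highest for both, and both overlapped between the groups. Ces2 in non-epithelial nuclei was at 15.5, 13.2 and 36.28 CPM in CON against 47.2, 67.6 and 37.04 in SAP (plain CPM). Cyp2c66 was at 1.16, 0 and 5.48 CPM in CON against 8.58, 17.9 and 10.995 in SAP there. The groups did not overlap for Ces2 and Cyp2c66, but they did for Cyp3a62 and Cyp3a73. The enterocyte marker sum in the same nuclei was 1013, 975 and 2578 CPM in CON against 1695, 3665 and 1687 in SAP, also highest in SAP replicate 2, and its part in these levels was not tested. The difference between enterocyte-like and non-epithelial plain CPM within a library was 109 ± 100.4 in CON and 358 ± 180.1 in SAP for Cyp3a9 (SD, n = 3), without overlap. For Cyp2j3 it was 45.7 ± 40.4 and 127 ± 42.8, with overlap. The enterocyte-like level of Cyp2c66 was 1.245, 0.388 and 1.303 times its non-epithelial level in SAP (plain CPM). That of Cyp3a73 was 0.786, 0.861 and 1.59 times, so neither was higher in enterocyte-like nuclei of every SAP library. In a fit added after seeing the data, the log2 fold change of Cyp3a9 differed between enterocyte-like and non-epithelial nuclei by −0.02 (SE 0.49). In that fit 0 of 70 enzymes were called (0% of genes) and 6 had an unadjusted p under 0.05, against 3.45% of genes.

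In stem/TA-like nuclei, where the crypt cells divide, 16 of 47 tested enzymes had an unadjusted p under 0.05, all higher in SAP, against 4.64% of genes higher, and 13 did not overlap upward, against 6.32%. edgeR called 0 of these enzymes (0.0075% of 13328 genes) and DESeq2 called 3 (Cyp2c66, Cyp2j3 and Sult1b1), against 0.734% of genes. Cyp2c66 was at 1.22, 1.06 and 4.32 CPM in CON against 20.2, 29.8 and 14.9 in SAP, with a log2 fold change of 3.25 (SE 0.60, adjusted p 0.358). Sult1b1 was at 3.06, 2.65 and 6.72 CPM in CON against 15.7, 19.5 and 14.9 in SAP with a log2 fold change of 1.99 (SE 0.45, adjusted p 0.447). Cyp2j3 was at 6.52, 12.7 and 23.8 CPM in CON against 49.3, 81.9 and 50.3 in SAP, with a log2 fold change of 2.07 (SE 0.47, adjusted p 0.447). The SAP libraries were above the CON libraries for all 3 genes, with SAP replicate 2 the highest. The enterocyte marker sum in stem/TA-like nuclei was 569.9, 656 and 1526 CPM in CON against 1240.1, 3192 and 1129 in SAP (plain CPM), likewise highest in SAP replicate 2, and its part in these values was not tested. The fold change of enterocyte-like nuclei was tested against that of stem/TA-like nuclei of the same rats. By edgeR 0 of 60 enzymes were called (0% of 14882 genes) and 7 had an unadjusted p under 0.05, against 4.6% of genes. DESeq2 also called 0 enzymes. The log2 fold change of Sult1b1 was lower in enterocyte-like nuclei by 1.29 (SE 0.33), that of Cyp4f40 by 1.25 (SE 0.35) and that of Gsta4 by 0.72 (SE 0.32), all at an adjusted p of 1.00.

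Over the 16 classes or unnamed clusters that had 10 or more nuclei in each library, edgeR called 0 enzymes in every fit, and DESeq2 called 7, which were the 3 of stem/TA-like nuclei, Cyp2j3 and Gsta5 in cluster 2 and Cyp2j3 and Cyp3a9 in cluster 7, against 2.04% and 0.45% of genes in these clusters. Over all genes edgeR called 9 in SMC-like nuclei (0.103%), 2 in cluster 9 (0.0238%) and 1 each in stem/TA-like, goblet-like (0.00859%), endothelial-like, enteroendocrine-like and tuft-like nuclei and in clusters 7 (0.0109%) and 13, none of them an enzyme of the rule. It called 0 in the others, among them cluster 2 and B/T-like nuclei (0%). In cluster 2, 13 of 36 tested enzymes were higher and 1 lower at an unadjusted p under 0.05, against 7.28% and 6.21% of genes. In cluster 7 it was 9 of 26 higher and 0 lower, against 4.91% and 3.55%. Goblet-like nuclei had 10 of 35 higher and 0 lower, against 4.38% and 3.45%. B/T-like nuclei had 5 of 37 higher and 0 lower, against 2.78% and 2.51%. Enterocyte marker RNA was also counted in non-epithelial nuclei, as given above, and its part in the values of these classes was not tested. The median log2 fold change of the tested enzymes was 0.66 in B/T-like, 0.67 in goblet-like, 0.60 in cluster 2 and 0.67 in cluster 7, against 0.04, 0.01, 0.02 and −0.01 over all genes.

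The sensors that control these enzymes were examined as a list of 22 genes, of which 22 were tested. In enterocyte-like nuclei 15 had a log2 fold change above 0 and 7 below, where 49.3% of all genes were above 0. edgeR called 0 (0% of genes), and 3 of the 22 had an unadjusted p under 0.05, against 8.25% of genes. Ahr, the aryl hydrocarbon receptor, was at 27.4, 22.7 and 24.2 CPM in CON against 22.7, 24.6 and 23.5 in SAP, with a log2 fold change of −0.07 (SE 0.24, adjusted p 0.966). Nr1i2, the pregnane X receptor that controls Cyp3a genes, was at 80.0, 88.3 and 104 CPM in CON against 104, 127 and 83.9 in SAP, with a log2 fold change of 0.21 (SE 0.23, adjusted p 0.858). Nr1i3, the constitutive androstane receptor, had a log2 fold change of −0.02 (SE 0.25, adjusted p 0.993), and the groups of all 3 receptors overlapped. Hnf4a, which maintains enterocyte genes, was at 524, 501 and 532 CPM in CON against 561, 713 and 561 in SAP, with a log2 fold change of 0.24 (SE 0.20, adjusted p 0.804). Nfe2l2, the oxidative stress factor, was at 119.7, 145 and 135 CPM in CON against 172, 167 and 167 in SAP, with a log2 fold change of 0.34 (SE 0.18, adjusted p 0.672). Both were higher in every SAP library than in any CON library. Of genes chosen after their values were seen, Ahrr, the repressor that AhR induces, was at 11.1, 12.5 and 7.77 CPM in CON against 1.94, 3.47 and 5.40 in SAP, with a log2 fold change of −1.46 (SE 0.46, adjusted p 0.583). Cebpb, a factor of the acute phase response chosen likewise, was at 10.00, 19.6 and 17.5 CPM in CON against 32.4, 31.6 and 35.7 in SAP, with a log2 fold change of 1.08 (SE 0.31, adjusted p 0.583). The only gene of the 4 lists that edgeR called in any class was Ppargc1a, a coactivator of mitochondrial genes, in SMC-like nuclei, where it was at 276, 219.8 and 231 CPM in CON against 55.3, 30.6 and 68.5 in SAP, with a log2 fold change of −2.18 (SE 0.33, adjusted p 0.0426). In these nuclei edgeR called 0.103% and DESeq2 1.69% of all genes.

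The list of electron and cofactor supply held 17 genes, of which 16 were tested in enterocyte-like nuclei, with 5 above 0, 11 below and 0 called. An unadjusted p under 0.05 was found for 1 of the 16. Over all genes tested in these nuclei, 49.3% were above 0, 0% were called and 8.25% had an unadjusted p under 0.05. Por, which feeds electrons to all microsomal P450 enzymes, was at 161, 62.9 and 105 CPM in CON against 109, 117 and 135 in SAP, with a log2 fold change of 0.13 (SE 0.33, adjusted p 0.953), and its groups overlapped. Of 16 drug carriers, 13 were tested, with 6 above 0, 7 below, 0 called and 3 at an unadjusted p under 0.05. Slco2b1, an uptake carrier of organic anions chosen after its values were seen, was at 133, 106 and 85.5 CPM in CON against 17.5, 19.98 and 30.5 in SAP, with a log2 fold change of −2.24 (SE 0.30, adjusted p 0.292) by edgeR, and every SAP library was far below the CON libraries. Of 35 other drug-metabolising enzymes, 26 were tested, with 12 above 0, 14 below, 0 called and 4 at an unadjusted p under 0.05. Nqo1, a quinone reductase that AhR and Nfe2l2 control, also chosen after its values were seen, was at 23.1, 24.1 and 17.8 CPM in CON against 4.53, 3.33 and 4.46 in SAP, with a log2 fold change of −2.41 (SE 0.33, adjusted p 0.292), again with every SAP library below. Dhrs9, a retinol dehydrogenase chosen in the same way, had the opposite direction, at 35.7, 44.6 and 74.0 CPM in CON against 117, 135 and 139 in SAP and a log2 fold change of 1.34 (SE 0.29, adjusted p 0.583).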

How the data were processed

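Sums of UMIs were compared between 3 CON and 3 SAP ileum libraries, 1 per rat. The deposited counts are UMIs per gene and barcode, not normalised, that the authors made with the DNBelab C kit and dnbc4tools. The submitters' processing notes name Seurat 4.3.0 and the rat build mRatBN7.2, and replicates were not pooled. Barcodes with at least 1200 UMIs, at least 500 genes and at most 5% mitochondrial UMIs were kept, as in the study's quality control. Nuclei were clustered on 2000 variable genes and 30 components (scanpy 1.11.5, Leiden resolution 0.8), after the libraries were aligned with a Harmony routine. The enzymes, mitochondrial genes, alpha-defensins and the pathway-list genes that were not markers were left out. Clusters were named from marker lists. The names were rebuilt here, since an annotation of nuclei was not used here, so a difference from the study's classes may come from them. The automatic call of Scrublet marked 0% of nuclei, so doublets were kept, and leaving out the 5% with the highest scores (2051 nuclei) was an alternative.

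UMIs were summed per library over all nuclei, all epithelial nuclei and each class, and fitted over all genes with edgeR 4.0.16 in R 4.3.3 (filter on low counts, TMM, quasi-likelihood test, Benjamini-Hochberg adjustment), with DESeq2 1.42.0 as an alternative. The limits for a call were an adjusted p below 0.05 and a log2 fold change of 0.5 or more in either direction. The SE of an edgeR value is its absolute log2 fold change divided by the square root of its F statistic. It is not a fitted standard error, unlike the SE that DESeq2 gives. The fits over all nuclei and over enterocyte-like nuclei were tested on simulated counts with the same dispersion for every gene in a run. These runs cannot show how the fits behave on the spread of the libraries here. The enzymes, the marker and pathway lists and the naming rule (the 2 enzymes with the most UMIs of each symbol group, those called, up to 5 per direction with the largest fold change in enterocyte-like nuclei without overlap, and 6 pathway genes by name) were chosen with earlier results of these data known. The replicate numbers come from the labels, which do not say what they share. Libraries of the same number deviated together over all nuclei (correlations of 0.577, 0.183 and 0.524 over genes). All 3 passed the limit set for counting the numbers as pairing, but the main fits had no block. The second pair had only 0.0587 over all epithelial nuclei and 0.111 in enterocyte-like nuclei. Libraries of different number reached 0.144 over all nuclei and 0.16 over all epithelial nuclei. A fit with the replicate number as a block was an alternative. Other alternatives were another normalisation, no filter, a mitochondrial limit of 1%, a term for the kind of barcode list, Leiden resolution 0.4, unnamed clusters counted with the class closest to them, and leaving out each library. Counts cover 5549260 to 28771508 UMIs per library, and p-values measure the spread between 3 rats per group. No library was a repeat of another of its group, since libraries of 1 group differed by 46.2 to 326 times counting noise (chi-square per degree of freedom over genes). CON libraries were not compared with SAP libraries in this way. Promoters and gene names were taken from RefSeq (GRCr8), where all 119 enzymes had an entry, and no coordinate was carried over to the build of the counts.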

Additional observations from a re-analysis of the deposited data

Results flagged for a closer look

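The barcodes that failed quality control entered no comparison, and their enzyme level was higher in SAP than in the control libraries. The UMIs of the 119 enzymes were 1269.9, 1168 and 1574 CPM in CON and 1908, 2463 and 1909 CPM in SAP, with means of 1337 and 2093 CPM. All levels in these barcodes are plain CPM. Cyp3a9 was at 11.4, 15.7 and 55.3 CPM in CON and 119, 173 and 77.3 CPM in SAP in these barcodes, and Cyp2j3 at 16.8, 19.8 and 44.7 CPM in CON and 59.3, 107 and 89.6 CPM in SAP. Gsta4 was at 32.4, 33.3 and 23.5 CPM in CON and 12.8, 24.5 and 18.5 CPM in SAP, where the groups overlapped. The part of these barcodes in the levels of the nuclei that passed was not tested.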

How the results depend on the processing

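edgeR called 0 enzymes in each of the 5 comparisons, and other settings gave other counts. DESeq2 called 8 over all nuclei, 9 over all epithelial nuclei and 7 over all classes. With no filter on low counts 32 were called over all classes and 2 in the comparison of enterocyte-like with stem/TA-like nuclei. Leaving out 1 library at a time gave 0 to 2 over all classes and 0 in the sums over all nuclei, all epithelial and enterocyte-like nuclei. Without CON replicate 3 the 2 were Ces2 and Cyp2j3 in cluster 7, and without SAP replicate 3 it was Cyp3a62 in cluster 2. The share of all genes called with no filter or without a library is not given here. These counts are therefore not read as particular to the enzymes. No alternative called an enzyme in enterocyte-like nuclei. The replicate block called 0 in each comparison that it was fitted for, and it turned the direction of 2 of 82 fold changes. The cause was not tested for any of these. Of 1184 fold changes of named enzymes under alternatives, 1095 kept their direction and their side of the threshold, 9 passed it and 80 turned direction, in 27 of 82 results. Cyp3a9, Cyp2j3 and Gsta4 kept their direction in enterocyte-like nuclei, at 1.14 to 2.65, 1.28 to 2.46 and −1.55 to −0.81. The log2 fold changes that turned direction follow. With no filter on low counts: Gstm2 −0.04 (all nuclei), Sult1c2a −0.02 (all nuclei), Ugt1a9 −0.01 (enterocyte-like). With doublets left out: Gstm2 −0.03 (all nuclei), Gstm2 −0.01 (epithelial), Ces1f −0.01 (enterocyte-like), Ugt1a9 −0.02 (enterocyte-like). With mitochondrial limit 1%: Gstm2 −0.13 (all nuclei), Gstp1 −0.04 (all nuclei), Gstm2 −0.16 (epithelial), Gstp1 −0.10 (epithelial), Gstm5 −0.16 (enterocyte-like), Gstp1 −0.29 (enterocyte-like), Sult1c2a 0.08 (enterocyte-like), Sult2b1 0.01 (enterocyte-like), Ugt1a1 −0.16 (enterocyte-like), Ugt1a9 −0.12 (enterocyte-like). With RLE size factors in edgeR: Cyp4f40 0.01 (epithelial). With replicate block: Gstm5 0.02 (epithelial), Gstm2 0.26 (enterocyte-like). With enterocyte-like cluster 8 alone: Gsta3 0.0018 (enterocyte-like), Gstm5 −0.27 (enterocyte-like), Gstp1 −0.06 (enterocyte-like), Sult2b1 0.08 (enterocyte-like). With enterocyte-like cluster 6 alone: Gstt2 −0.24 (enterocyte-like), Sult2b1 0.23 (enterocyte-like). With enterocyte-like cluster 1 alone: Sult1c2a 0.19 (enterocyte-like), Sult2b1 0.08 (enterocyte-like), Ugt1a9 −0.08 (enterocyte-like). With unnamed clusters in the closest class: Sult2b1 0.17 (enterocyte-like). Leaving out 1 library at a time gave Cyp4f40 −0.25 to 0.13 (all nuclei), Gsta3 −0.42 to 0.08 (all nuclei), Gstm2 −0.39 to 1.02 (all nuclei), Gstm4 −0.19 to 0.08 (all nuclei), Gstm5 −2.22 to 1.79 (all nuclei), Gstp1 −0.14 to 1.08 (all nuclei), Gstt2 −0.30 to 0.42 (all nuclei), Sult1c2a −0.19 to 0.22 (all nuclei), Ugt2b10 −0.03 to 0.84 (all nuclei), Cyp4f40 −0.12 to 0.17 (epithelial), Gsta3 −0.50 to 0.04 (epithelial), Gstm2 −0.40 to 1.19 (epithelial), Gstm5 −2.34 to 1.69 (epithelial), Gstp1 −0.12 to 1.09 (epithelial), Gstt2 −0.23 to 0.44 (epithelial), Ugt2b10 −0.0044 to 0.75 (epithelial), Ces1f −0.35 to 0.45 (enterocyte-like), Cyp2d4 −0.23 to 0.68 (enterocyte-like), Gstm2 −0.79 to 1.16 (enterocyte-like), Gstm5 −0.40 to 1.69 (enterocyte-like), Gstp1 −0.37 to 1.03 (enterocyte-like), Gstt2 −0.41 to 0.61 (enterocyte-like), Sult1c2a −0.33 to 0.06 (enterocyte-like), Sult2b1 −0.17 to 0.10 (enterocyte-like), Ugt1a1 −0.27 to 1.15 (enterocyte-like), Ugt1a9 −0.22 to 0.48 (enterocyte-like). Depth limits the 57 enzymes under 200 UMIs and the classes with few nuclei, where a difference could be missed. Of these enzymes, DESeq2 called Ugt2b (197 UMIs) over all nuclei and Cyp2b1 (182 UMIs) over all epithelial nuclei. At the 1% mitochondrial limit 8 classes remained. It kept 6642, 6176 and 7924 of 9246, 6260 and 8414 nuclei in CON. In SAP it kept 384, 1908 and 6825 of 3189, 5968 and 7893 nuclei.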
